A study of Mus musculus with 714 samples.

Results

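The genes described here are the ligands, receptors, binding proteins and nuclear effectors of fibroblast growth factor (FGF), epidermal growth factor (EGF), insulin-like growth factor (IGF), transforming growth factor beta (TGF-beta), bone morphogenetic protein (BMP), activin, Notch and Hedgehog signalling. They were chosen by the start of their names, and 85 of the 12479 rows of the table matched. Of these, 69 belong to the named families and 16 share letters with them by name only. The cells came from uteri of ICR mice, an outbred stock, sorted for CD326, the surface protein EpCAM of epithelia. No genotype or treatment is labelled, and the labels set the 5 groups apart by age alone: postnatal day (pnd) 0, 7, 14, 28 and 56. CEL-seq, which reads the 3′ end of each transcript, gave 1 count table. Of 960 cells said to be sorted, 714 were deposited.

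In the uterus these pathways carry signals between the epithelium and the mesenchyme beneath it, and many of them are used in gland formation and in the response to ovarian steroids. FGF, EGF and IGF ligands bind receptor tyrosine kinases, and IGF-binding proteins hold IGF away from its receptor or carry it there. TGF-beta, activin and BMP ligands bind pairs of serine kinase receptors that phosphorylate SMAD proteins, and BMP signalling commonly switches on the Id genes, whose proteins block basic helix-loop-helix transcription factors. A Notch receptor is cut after it meets a Jagged or Delta ligand on the next cell, and Hes genes are its usual targets. Hedgehog ligands relieve the block that Patched holds on Smoothened, which then acts through GLI factors. Indian hedgehog is the epithelial ligand best known in the uterus. Its gene was not analysed here, nor were Bmp4, Bmp7, Jag2, Notch3, Gli1, Erbb3 and Igf2.

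No label names an animal, litter or pool, so each age stands as 1 sample of many cells, and no difference between ages has a replicate check. A level is the sum of a gene's counts over the cells of an age per 1000000 counts of all genes (CPM). The square brackets give 95% intervals (exact Poisson for a level, exact conditional binomial for a ratio) that cover counting error only. Total counts were 582615, 732957, 354047, 96248 and 81894 from pnd0 to pnd56, so 1 count is worth 1.72, 1.36, 2.82, 10.4 and 12.2 CPM. Cell titles fall into 10 blocks of 96 consecutive numbers, called runs here. Runs 1 and 2 hold 88 and 85 cells of pnd0, runs 5, 6 and 10 hold 88, 87 and 92 of pnd7, and runs 3, 4 and 7 hold 70, 24 and 79 of pnd14. Run 9 holds the 56 cells of pnd28 and run 8 the 45 of pnd56. No run holds cells from a pair of ages, so age and run cannot be told apart. Krt18, a keratin of simple epithelia, was counted in 78.6% to 98.9% of cells at each age and Epcam itself in 28.6% to 53.3%. Haemoglobin and other erythroid markers took 2.65% of the counts of run 1 against 0.000696% of run 2, and their part in the ratios to pnd0 was not tested.

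ID proteins, SMADs and receptors carried most of the signal, and ligands were seldom counted. The 69 family members together stood at 4612, 4107, 3918, 4073 and 2198 CPM over the 5 ages. Of them, 16 had at least 100 counts over all cells, 38 at least 20 and 25 fewer than 10, and 12 members were counted in a single cell. The 4 Id genes summed to 1682, 1471, 1175, 1340.3 and 293 CPM. The 6 SMAD genes summed to 561.3, 514.4, 339, 717 and 305 CPM. The 5 FGF receptor genes summed to 447.98, 331.5, 367, 51.9 and 48.8 CPM. The levels show 3 patterns: Id1 and Id3 were low at pnd56, Igfbp2 was nearly absent from pnd14 on, and Fgfr2 was nearly absent from pnd28 on.

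**Figure D1:**
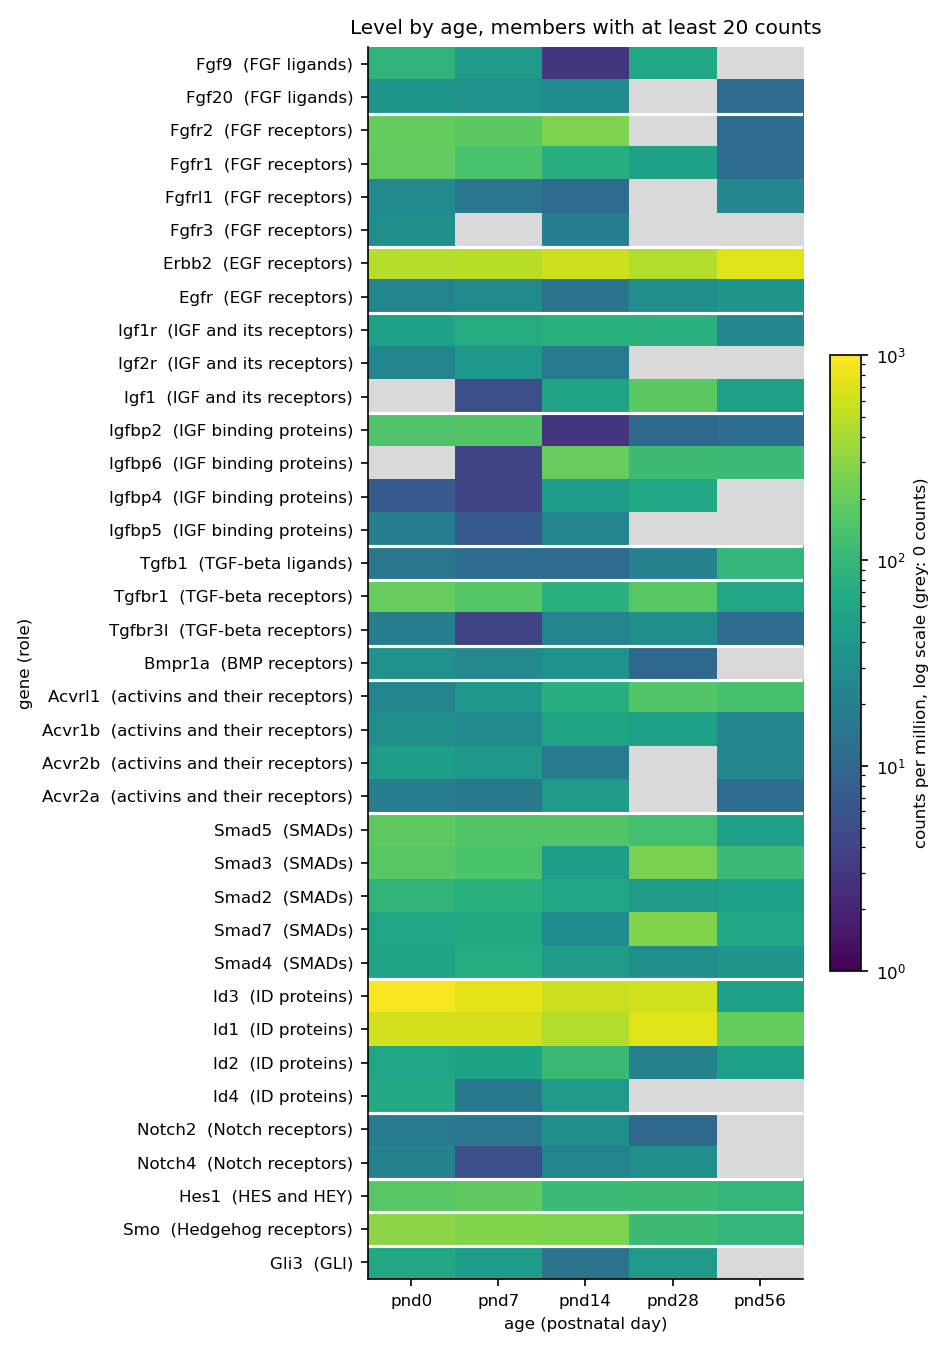
Map of the levels of 37 members with at least 20 counts (rows, grouped by role) at the 5 ages (columns), coloured by CPM on a log scale, with grey for 0 counts. Id3 lies between 576.2 and 937.2 CPM up to pnd28 and at 48.8 CPM at pnd56, and Fgfr2 is grey at pnd28.

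The promoters of Id3, Fgfr2, Igfbp2 and Smad3, each with a difference between ages that stayed at least 2-fold under every alternative run, are shown for their letters, as the 250 bases before the RefSeq transcription start (build GRCm38.p6, 5′ to 3′ on the strand of the gene). Capitals mark matches on either strand to 5 short motifs: TGGGAA, the core linked to RBPJ, the DNA-binding partner of Notch; CACNAG, linked to HES proteins; CACGTG, the E-box of basic helix-loop-helix factors; CCACCCA, linked to GLI; and GGCGCC, linked to SMADs. The Id3 window lies at chr4:136143572-136143821 on the plus strand and holds none of these letters.
Id3: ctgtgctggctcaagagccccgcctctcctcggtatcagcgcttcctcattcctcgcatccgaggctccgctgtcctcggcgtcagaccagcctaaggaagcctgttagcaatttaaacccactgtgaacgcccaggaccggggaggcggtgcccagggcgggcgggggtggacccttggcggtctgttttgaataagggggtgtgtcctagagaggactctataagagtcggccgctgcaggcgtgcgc
The Fgfr2 window, at chr7:130266809-130267058 on the minus strand, holds 1 match to TGGGAA, on the opposite strand, so that it reads TTCCCA.
Fgfr2: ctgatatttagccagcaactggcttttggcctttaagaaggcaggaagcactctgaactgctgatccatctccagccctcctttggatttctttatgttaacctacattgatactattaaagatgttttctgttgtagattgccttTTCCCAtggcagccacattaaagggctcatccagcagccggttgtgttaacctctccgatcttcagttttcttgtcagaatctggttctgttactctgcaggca
The Igfbp2 window, at chr1:72824230-72824479 on the plus strand, is the first of 2 listed for the gene. It holds CACNAG and CACGTG side by side and without overlap.
Igfbp2: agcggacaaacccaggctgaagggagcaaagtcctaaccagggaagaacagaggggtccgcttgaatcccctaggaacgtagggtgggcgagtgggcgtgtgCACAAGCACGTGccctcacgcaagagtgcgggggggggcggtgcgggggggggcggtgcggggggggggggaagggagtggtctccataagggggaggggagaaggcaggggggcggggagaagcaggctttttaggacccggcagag
The Smad3 window, at chr9:63757995-63758244 on the minus strand, holds 1 match to TGGGAA.
Smad3: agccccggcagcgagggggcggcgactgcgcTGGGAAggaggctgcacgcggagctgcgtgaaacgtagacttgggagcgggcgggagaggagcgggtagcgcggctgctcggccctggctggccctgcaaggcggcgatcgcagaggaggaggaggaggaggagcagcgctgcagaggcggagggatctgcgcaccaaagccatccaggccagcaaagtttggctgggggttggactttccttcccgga
Of the 69 members, 53 matched a promoter, and the first window listed for each was used. The shares of all windows count every window listed for a gene, so the units differ. TGGGAA was found in 13 of the 53 members (24.5%) against 21.6% of all 32851 windows, and CACNAG in 14 (26.4%) against 36.7%. CACGTG was found in 5 (9.43%) against 6.02%, CCACCCA in 6 (11.3%) against 8.11%, and GGCGCC in 10 (18.9%) against 9.59%. A match describes letters and is no binding site.

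To set ages side by side, a member was read where it had at least 20 counts over both ages. It is said to lie at least 2-fold apart where the ratio reached 2-fold and its interval left out no difference. Members reach the minimum partly through the age at which they are high, so these counts are a description. Between pnd0 and pnd7, 2 of 30 members lay at least 2-fold apart, both lower at pnd7, beside 10.4% of all 5953 genes read. For Id4, 1 of the 2, the runs of the ages did not overlap either, as for 7.11% of all genes. Between pnd7 and pnd14, 12 of 32 did, 7 higher and 5 lower at pnd14, beside 21.2% of all genes. From pnd14 to pnd28 the count was 7 of 19, with 4 higher and 3 lower, beside 24.8%. From pnd28 to pnd56 it was 5 of 9, all lower, beside 26.6% of all genes in either direction and 13.6% lower. Over the whole span, 10 of 23 members differed at pnd56 from pnd0, 1 higher and 9 lower, beside 22.5% in either direction and 14.1% lower. The median log2 ratios of the members were −0.18, −0.16, 0.02, −1.45 and −0.98 in these 5 comparisons, against −0.03, −0.10, −0.23, 0.06 and −0.34 for all genes read. Median-of-ratios scaling moves every ratio to pnd0 at pnd56 by 0.185 and every ratio of pnd14 to pnd7 by 0.104 on the log2 scale. The comparisons share ages and are not independent of each other.

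**Figure D2:**
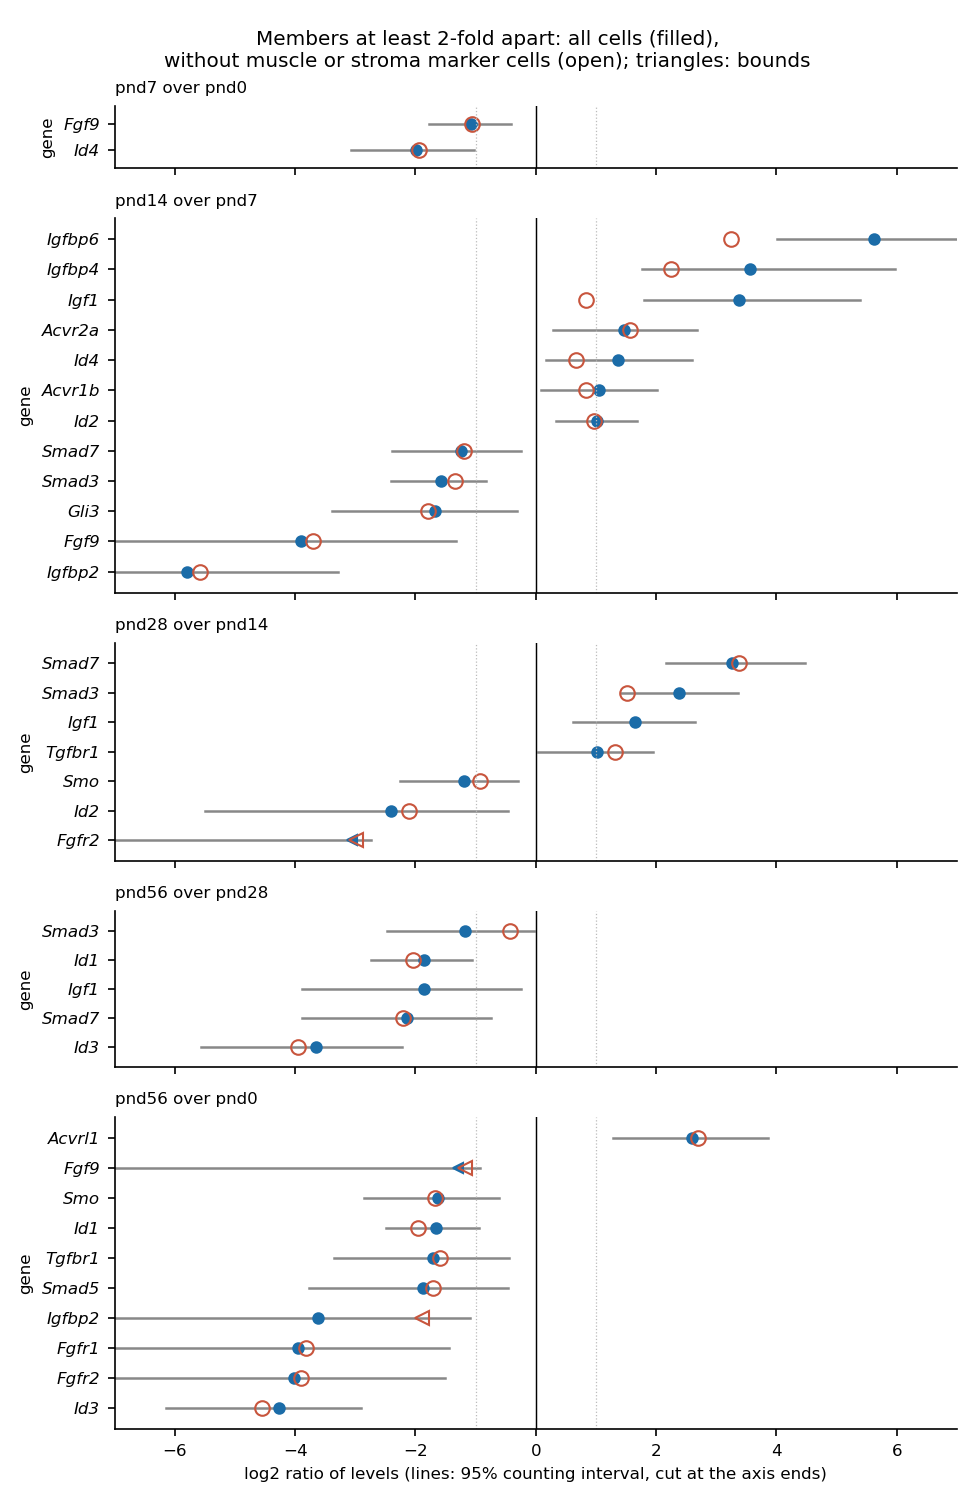
Log2 ratios of the members at least 2-fold apart in the 5 comparisons of ages, as filled points with 95% counting intervals, triangles where a floor of 3 counts gives a bound, and open points without the cells with muscle or stroma markers. From pnd28 to pnd56 the 5 members shown are lower, between −1.18 for Smad3 and −3.65 for Id3.

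TGF-beta, activin and BMP ligands left few counts at any age. Tgfb1, which encodes the prototype ligand, stood at 15.4, 12.3, 11.3, 20.8 and 97.7 CPM, from 9, 9, 4, 2 and 8 counts. The 8 counts at pnd56 lay in 3 cells, and 17 counts over pnd0 and pnd56 fall short of the minimum for a ratio. Bmp8b, a BMP of the germ line and of fat tissue, had 15 counts in all and none after pnd14. Bmp2, a BMP of the uterine stroma in early pregnancy, had 1 count at pnd0 and 4 in 1 cell at pnd28. Inhba, the activin beta-A subunit, had 3 counts, and Tgfb2 and Tgfb3 had 6 and 1.

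Among the receptors of this family, Tgfbr1 stood lower and Acvrl1 higher at pnd56 than at pnd0. Tgfbr1, the type I TGF-beta receptor, stood at 199.1, 162.4, 81.9, 166.2 and 61.1 CPM. Its level at pnd56 was 3.26-fold below that at pnd0, or −1.71 [−3.36, −0.44] as log2. A count was held by 14.6% of pnd0 and 2.33% of pnd56 cells once each cell was thinned to 1000 counts (called equal depth below). The higher value at pnd28 than at pnd14, a log2 ratio of 1.02 [0.04, 1.95], was 0.69 without the cell with the most counts and 0.78 without run 4, and then no longer reached 2-fold.

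Acvrl1, or ALK1, a type I receptor best known from endothelium, stood at 22.3, 39.6, 79.1, 155.8 and 134.3 CPM. It was the 1 member at least 2-fold higher at pnd56 than at pnd0, with a log2 ratio of 2.59 [1.29, 3.86]. A single cell held 7 of its 11 counts at pnd56, and without the largest cell of each age the ratio was 1.51 on fewer than the minimum of 20 counts. The pnd14 runs stood at 133.2, 76.5 and 32.6 CPM, the last within the pnd7 runs of 20.5 to 49.3 CPM. Markers of endothelium took 0.00704%, 0.00750%, 0.0192%, 0.00416% and 0.0110% of all counts over the 5 ages. Of the 6 with a row, 3, 5, 5, 2 and 2 had a count. Cdh5, a defining marker, was at 0 at every age but pnd7, and at pnd14 it was the only 1 of the 6 at 0. The part of endothelial cells in the Acvrl1 levels was not tested. Bmpr1a, a type I BMP receptor, stood at 32.6, 25.9, 33.9, 10.4 and 0 CPM, and 10 of its 12 counts at pnd14 came from run 4.
Acvr1b and Acvr2a, a type I and a type II activin receptor, were at 56.5 and 45.2 CPM at pnd14 against 27.3 and 16.4 at pnd7. Their log2 ratios of 1.05 [0.08, 2.02] and 1.46 [0.29, 2.68] were under 2-fold at equal depth, at 0.55 and 0.72, and that of Acvr1b was 0.58 without run 10. The end of Acvr2a overlaps Orc4 on the other strand in the annotation, and no source used here gives whether counting used the strand.

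Smad3 and Smad7 stood lower at pnd14 than at pnd7 and pnd28. Smad3, which carries TGF-beta and activin signals to the nucleus, stood at 168.2, 143.3, 48.02, 249.4 and 109.9 CPM. By run these were 203.1 and 132.3 at pnd0, 176.6, 97.4 and 147.8 at pnd7, and 44.4, 61.2 and 45.6 at pnd14. All 3 pnd14 runs lay below every other run. The log2 ratio was −1.58 [−2.41, −0.83] for pnd14 over pnd7 and 2.38 [1.42, 3.36] for pnd28 over pnd14. The first stayed at least 2-fold apart under each alternative run. The second did too, except that its 17 and 24 counts fall short of a minimum of 50. The 24 counts at pnd28 lay in 9 of 56 cells with at most 8 in one. Cells with muscle or stroma markers held 11 of them, and without such cells Smad3 stood at 160.5 CPM at pnd28 and 169.5 CPM at pnd0.

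Smad7, the inhibitory SMAD that damps TGF-beta receptors, stood at 60.1, 66.9, 28.2, 270.1 and 61.1 CPM. Its pnd28 level lay 9.56-fold above that at pnd14, a log2 ratio of 3.26 [2.16, 4.47], and above the pnd56 level, where the log2 ratio was −2.15 [−3.88, −0.74]. At equal depth, counts lay in 15.4% of pnd28 cells against 1.85% to 6.02% at the other 4 ages. The 26 counts at pnd28 lay in 14 cells, 3 of which also held a count of Smad3. At pnd14 Smad7 stood below pnd7, with −1.24 [−2.39, −0.24], but its pnd7 runs of 82.1, 14.6 and 91.5 CPM spanned the pnd14 runs of 29.6, 15.3 and 32.6, and without run 10 the ratio was −0.86.

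The other SMADs varied less. Smad5, a BMP-responsive SMAD, stood at 178.5, 152.8, 155.3, 124.7 and 48.8 CPM, and its log2 ratio of pnd56 to pnd0 was −1.87 [−3.77, −0.47], and −1.47 at equal depth, where it no longer met the rule. Smad2, the partner of Smad3, stood between 92.7 CPM at pnd0 and 41.6 at pnd28, and Smad4, shared by both branches, between 69.6 CPM at pnd7 and 31.2 at pnd28. Neither lay at least 2-fold apart in any comparison in which it was read. Smad6 had 3 counts in 1 pnd0 cell.

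Id3 and Id1 were the members with the most counts and stood lowest at pnd56. Id3 stood at 937.2, 755.8, 576.2, 613 and 48.8 CPM [13.3, 125.1 at pnd56]. By run it was 1056 and 815 at pnd0, 710.4, 755 and 795.5 at pnd7, and 606.7, 612.3 and 533.98 at pnd14, so the 3 youngest ages did not overlap. The 45 pnd56 cells held 4 counts, 1 in each of 4 cells. At equal depth Id3 was counted in 50.3%, 42.9%, 27.8%, 36.5% and 4.65% of cells. Its pnd56 level was 19.2-fold below pnd0, a log2 ratio of −4.26 [−6.14, −2.90], and 12.5-fold below pnd28, a log2 ratio of −3.65 [−5.57, −2.22].

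Id1 stood at 619.6, 643.97, 446.3, 707 and 195.4 CPM. Its pnd14 runs stood at 414.3, 658.2 and 384 CPM. Run 4, at 658.2, lay within the pnd7 runs of 607.7 to 693, and runs 3 and 7 lay below them. The log2 ratio of pnd56 was −1.85 [−2.74, −1.05] over pnd28 and −1.67 [−2.49, −0.95] over pnd0. At equal depth, counts lay in 39.2%, 35.3%, 27.2%, 30.8% and 16.3% of cells. The 4 low values of Id1 and Id3 at pnd56 stayed at least 2-fold apart under each alternative run. Id2, at 60.1, 54.6, 110.2, 20.8 and 48.8 CPM, stood highest at pnd14, with log2 ratios of 1.01 [0.34, 1.69] over pnd7 and −2.41 [−5.50, −0.46] from pnd14 to pnd28. Its ratio at pnd14 was 0.64 without run 7. Id4, at 65.2, 16.4, 42.4, 0 and 0 CPM, was 3.98-fold lower at pnd7 than at pnd0, a log2 ratio of −1.99 [−3.07, −1.03], and its higher value at pnd14, 1.37 [0.18, 2.60], was 0.66 without the cells with muscle or stroma markers and no longer at least 2-fold apart. Such cells held 46.7% of its 15 counts at pnd14.

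**Figure D3:**
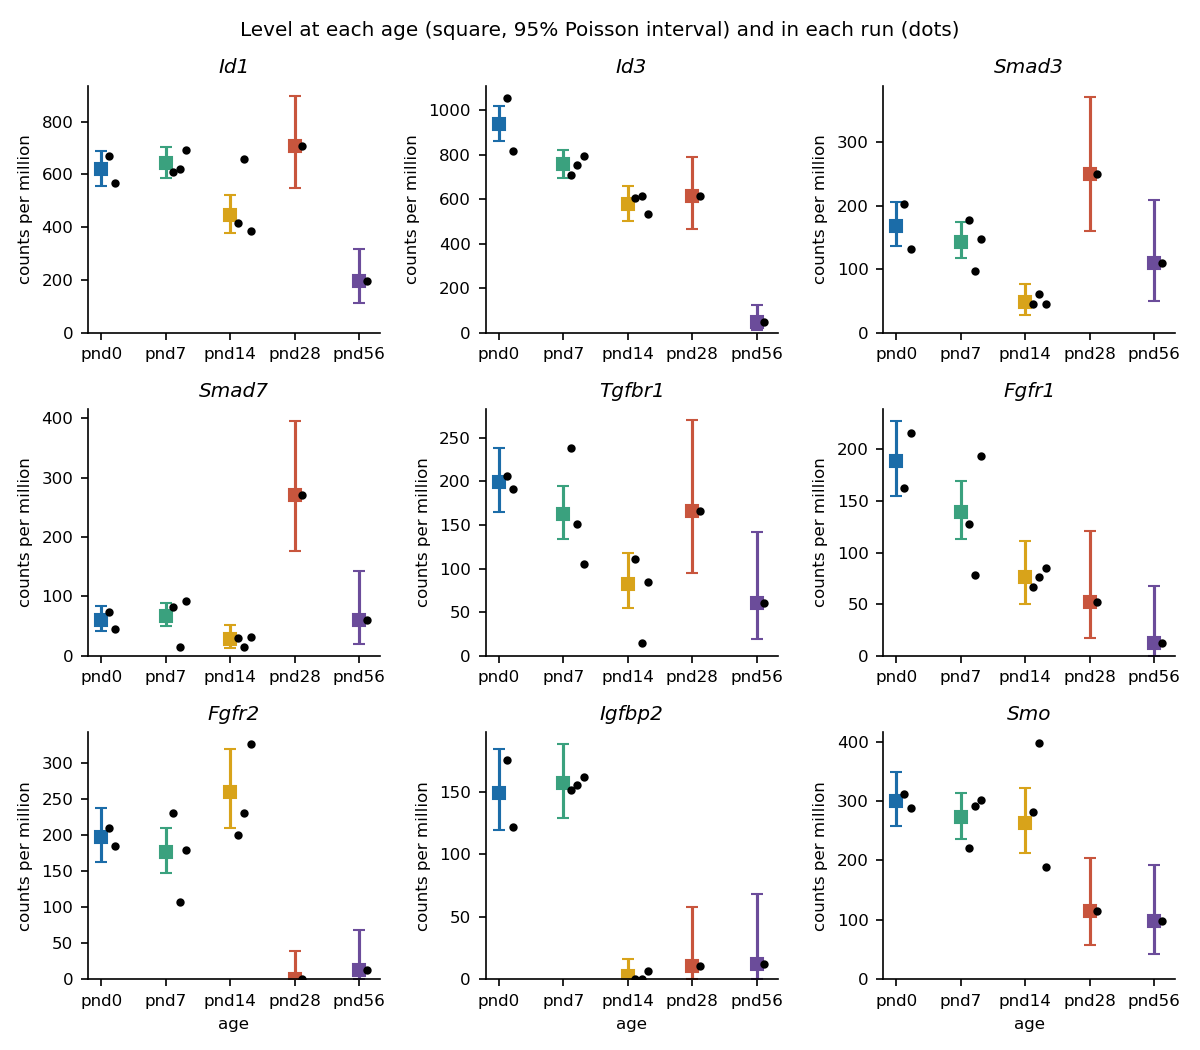
Levels of 9 members in CPM at each age, as squares with 95% Poisson intervals of counting error, and in each of the 10 runs, as dots. The 3 pnd14 runs of Smad3 lie between 44.4 and 61.2 CPM, below every other run, and the pnd14 runs of Igfbp2 lie at 0, 0 and 6.51 CPM.

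Fgfr2 and Fgfr1 stood at 76.3 CPM or more up to pnd14 and at 51.9 CPM or less at the later ages. Fgfr2, whose epithelial isoform receives FGF7 and FGF10 from mesenchyme, stood at 197.4 CPM at pnd0, 259.9 at pnd14, 0 at pnd28 and 12.2 at pnd56. By run it was 209.9 and 184.5 at pnd0, 229.96, 107.1 and 179.5 at pnd7, and 199.8, 229.6 and 326 at pnd14. No count was seen in 56 cells of pnd28, which allows a share of up to 5.36% of cells with a count, and 1 count was seen in 45 cells of pnd56. Against a floor of 3 counts, pnd28 lay at least 8.34-fold below pnd14, with a log2 bound of −3.06, and of −2.30 at equal depth. The log2 ratio of pnd56 to pnd0 was −4.01 [−9.33, −1.51]. The counts are of the whole gene, and its isoforms cannot be separated in them.

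Fgfr1, the receptor more often linked with mesenchyme, stood at 188.8, 139.2, 76.3, 51.9 and 12.2 CPM. Its log2 ratio of pnd56 to pnd0 was −3.95 [−9.27, −1.44], from 1 count at pnd56. Fgfr3 had 18 counts at pnd0, none at pnd7 and 7 at pnd14, and Fgfrl1, a receptor-like protein without a kinase, had 16, 11, 4, 0 and 2. Fgf9, an epithelial ligand that acts on mesenchyme, stood at 89.3, 42.3, 2.82, 62.3 and 0 CPM. It was lower at pnd7 than at pnd0, with a log2 ratio of −1.08 [−1.77, −0.41] that was −0.44 at equal depth and −0.68 without run 2. It was also lower at pnd14, with −3.90 [−9.25, −1.32], from 1 count in run 3 against 31, and without run 3 a bound of −1.63 was left. With no count, pnd56 lay at least 2.44-fold below pnd0, a bound that was −0.23 as log2 at equal depth. Fgf20, of the same subfamily, stood at 37.8, 34.1, 28.2, 0 and 12.2 CPM. Fgf7 and Fgf10, the mesenchymal ligands of Fgfr2, had 1 and 2 counts over all cells.

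Erbb2 and Egfr, receptors of the EGF family, did not lie at least 2-fold apart in any comparison in which they were read. Erbb2, which pairs with the other EGF receptors, stood at 480.2, 587.5, 457.2 and 708.2 CPM from pnd7 to pnd56 and at 446.9 and 473.5 CPM in the pnd0 runs, with a log2 ratio of 0.62 [0.19, 1.04] for pnd56 over pnd0. Runs 3 and 7 of pnd14 stood at 495.7 and 833.5 CPM, and run 4, with 13 counts, stood below every other run, so the runs of 1 age differed more than the ages did. Erbb2 overlaps Mien1 on the other strand at its end, and Mien1 had 24 counts. Egfr stood at 22.3, 27.3, 14.1, 31.2 and 36.6 CPM, with 40.6 and 3.48 in the 2 pnd0 runs. Areg, the amphiregulin gene and a known progesterone target of uterine epithelium, had 11 counts, all in 7 cells of pnd14. The absence of a count at pnd7 allows a share of up to 1.12% of its cells with a count. Hbegf, which encodes the ligand tied to embryo attachment, had 9, 9, 0, 1 and 0 counts.

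Among IGF-binding proteins, Igfbp2 stood lower and Igfbp6 and Igfbp4 higher at pnd14 than at pnd7. Igfbp2 stood at 149.3, 156.9, 2.82, 10.4 and 12.2 CPM, with 176.04 and 121.9 in the pnd0 runs, 151.9, 155.8 and 161.9 in the pnd7 runs and 0, 0 and 6.51 in the pnd14 runs. Its log2 ratio of pnd14 to pnd7 was −5.80 [−11.11, −3.29], and without run 7, which holds the 1 count of pnd14, a bound of −3.39 was left. The ratio of pnd56 to pnd0 was −3.61 [−8.93, −1.10]. Without cells with muscle or stroma markers, Igfbp2 had no count at pnd56 and a bound of −1.90 was left. Igfbp6, which prefers IGF2, stood at 0, 4.09, 200.5, 114.3 and 109.9 CPM, with a log2 ratio of 5.61 [4.01, 7.93] for pnd14 over pnd7. Its pnd14 runs were 14.8, 627.6 and 182.3 CPM, and 1 cell of run 4 held 37 of the 71 counts. Igfbp4 stood at 6.87, 4.09, 48.02, 62.3 and 0 CPM, with a log2 ratio of 3.55 [1.76, 5.97] at pnd14, from 17 counts against 3. These counts just reach the minimum of 20. At equal depth, without the largest cell, or without run 3, 4, 5, 7 or 10, the rule was no longer met. The log2 ratio was still 2.61 or more in each of these.

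Igf1, a ligand made by uterine stroma under oestrogen, stood at 0, 5.46, 56.5, 176.6 and 48.8 CPM. It was higher at pnd14 than at pnd7, with a log2 ratio of 3.37 [1.79, 5.38], higher again at pnd28, with 1.64 [0.62, 2.65], and lower at pnd56 than at pnd28, with −1.85 [−3.88, −0.24]. None of these ratios met the rule at equal depth. The ratio of pnd14 to pnd7 also did not meet it without the largest cell or without run 3 or 7, at 2.91 or more. Igf1r, its receptor, stood at 51.5, 69.6, 81.9, 83.1 and 24.4 CPM and reached 2-fold with an interval clear of no difference in none of the 5 comparisons. Igf2r, the receptor that clears IGF2, stood at 22.3, 39.6, 16.9, 0 and 0 CPM.

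Cells with muscle or stroma markers held most of the Igf1, Igfbp4 and Igfbp6 counts at pnd14. Cells with counts of at least 3 different smooth muscle or stroma markers numbered 1, 5, 27, 8 and 2 over the 5 ages. They made up 15.6% of pnd14 and 14.3% of pnd28 cells and held 14.7% and 15.9% of the counts of those ages. They are a range and not a type: at pnd14, 16 further cells had 2 markers and 5 of the 27 had exactly 3. Epcam was counted in 11.1% of the 27 cells against 38.4% of the other pnd14 cells, and Krt18 in 59.3% against 97.9%, at median depths of 1770 and 1787 counts. Smooth muscle markers, 6 of 10 listed having a row, took 0.00687%, 0.0190%, 0.284%, 0.130% and 0.0110% of counts over the ages, and stroma markers, 11 of 13, took 0.00515%, 0.0126%, 0.0678%, 0.288% and 0.265%. Lmod1 and Synpo2 of muscle were at 0 at pnd0, pnd28 and pnd56, and Col6a2 of stroma from pnd7 on.

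At pnd14 the marker cells held 17 of 20 Igf1 counts, 59 of 71 of Igfbp6 (83.1%) and 11 of 17 of Igfbp4 (64.7%). Igfbp6 stood at 1133 CPM in them and 39.7 CPM in the other cells. Only 4 of the 27 marker cells held its 59 counts, and 1 of these cells held 37. Among the other cells, 8 held a count, so the level in marker cells rests mostly on 1 cell. Fgfr1 lay on the same side, with 9 of 27 counts, and Smo with 22 of 93. Fgfr2 lay on the other side, with 3 of 92 counts (3.26%), at 57.6 CPM in marker cells and 294.7 CPM in the others. Id1 did as well, with 8 counts (5.06%), at 153.6 against 496.7 CPM, whereas Id3 had 15.7% of its counts there, near the share of all counts. Of 27 members with at least 10 counts at pnd14, 8 had a share whose interval lay above 14.7% and 2 one below it. Smad3 had 0 of its 17 pnd14 counts in marker cells, with an interval that reached 19.5%. At pnd28, 10 of 11 Igfbp6, 15 of 17 Igf1 and 11 of 24 Smad3 counts lay in marker cells but 1 of 26 Smad7 counts. At pnd56 a single marker cell held all 9 Igfbp6 counts.

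**Figure D4:**
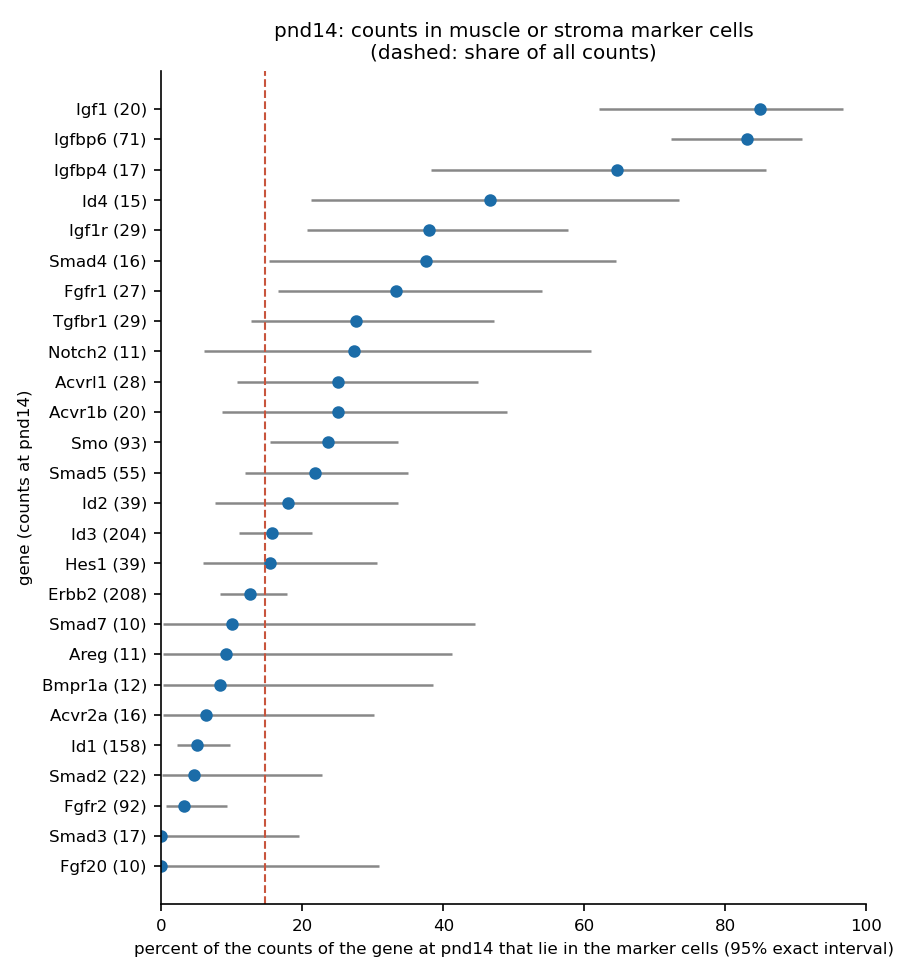
Share of each gene's pnd14 counts that lay in the 27 cells with at least 3 muscle or stroma markers, for 26 members with at least 10 counts, with 95% binomial intervals and a dashed line at the share of all counts, 14.7%. Igf1, Igfbp6 and Igfbp4 lie at 64.7% or more. Fgf20, Smad3, Fgfr2, Smad2 and Id1 lie at 5.06% or less, and of these only Fgfr2 and Id1 have intervals wholly below the line. The intervals take counts as independent, although 1 cell held 37 of the 71 Igfbp6 counts.

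Without the marker cells, 11 of 27 members read lay at least 2-fold apart between pnd7 and pnd14, beside 22.2% of all genes. Of these, 1 lay higher and 10 lower, beside 9.22% and 13%, and 6 were among the 12 found with all cells. Igf1 then had 3 counts at pnd14 and 4 at pnd7, Igfbp4 had 6 and 3, and Igfbp6 12 and 3, all under the minimum. Their log2 ratios were 0.83, 2.25 and 3.25. Some members lay at least 2-fold lower with an interval clear of no difference only without these cells. They were Acvr2b at −2.61, Igf2r at −2.02, Tgfbr1 at −1.24, Fgfr1 at −1.18 and Smad4 at −1.04. Igfbp2 at −5.58, Smad3 at −1.34 and Smad7 at −1.20 kept their side. Smad3 at pnd28 over pnd14 was 1.51 without these cells and 2.38 with them, while Smad7 was 3.37 and 3.26. From pnd28 to pnd56, 3 of 6 members read were at least 2-fold apart, beside 26.3% of all genes. These were Id3 at −3.95, Smad7 at −2.21 and Id1 at −2.03, and Smad3 was −0.42. With 3 counts at pnd14, 2 at pnd28 and 2 at pnd56, Igf1 then gave no ratio for pnd28 over pnd14 or for pnd56 over pnd28. In pooled cells, fewer cells of a kind and less RNA per cell cannot be told apart.

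Notch genes were sparse except for Hes1. The 3 Notch receptor genes in the table summed to 37.8, 23.2, 67.8, 83.1 and 0 CPM, from 22, 17, 24, 8 and 0 counts. Notch2 had 10, 11, 11, 1 and 0 counts and Notch4, a receptor best known from endothelium, 12, 4, 8, 3 and 0, of which 1 cell of run 1 held 7. The ligand Dll4 had 9 counts in all, Dll1 had 3 and Jag1 had 1. Hes1, the transcriptional repressor that Notch commonly induces, stood at 166.5, 184.2, 110.2, 114.3 and 97.7 CPM. By run it was 186.2 and 146.2 at pnd0, 164.3, 185.1 and 200.6 at pnd7, and 103.6, 76.5 and 130.2 at pnd14. Every pnd14 run lay below every pnd7 run, at a log2 ratio of −0.74 [−1.29, −0.22] that did not reach 2-fold. At equal depth Hes1 was counted in 14.0%, 13.2%, 6.79%, 9.62% and 6.98% of cells.

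Among Hedgehog genes the signal transducer Smo had far more counts than the ligand Shh or the receptor Ptch1. Smo stood at 300.4, 272.9, 262.7, 114.3 and 97.7 CPM, and by run between 188.8 and 398.01 CPM over all runs up to pnd14, above both later runs. Its log2 ratio was −1.20 [−2.25, −0.30] for pnd28 over pnd14 and −1.62 [−2.85, −0.61] for pnd56 over pnd0. These were −0.49 and −0.98 at equal depth, under 2-fold. Ptch1 had 8 counts in all, and Shh had 2 at pnd0. Gli3, a GLI factor that acts mainly as a repressor, stood at 63.5, 45.02, 14.1, 41.6 and 0 CPM. Its log2 ratio of pnd14 to pnd7 was −1.67 [−3.39, −0.31]. It was −3.70 without run 4, which held 4 of the 5 pnd14 counts, and −0.85 without run 7. Gli2 had 5 counts in 1 pnd14 cell.

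Partner genes of the same pathways, from 6 lists of modulators, adaptors and feedback inhibitors, were read in the same way. Between pnd0 and pnd7, 11 of the 59 read lay at least 2-fold lower and 0 higher, beside 6.37% and 4.03% of all genes. They included Rbpj, the nuclear partner of cleaved Notch, at a log2 ratio of −1.21, Lfng, which glycosylates Notch, at −1.11, and Lrig1, which restrains EGF receptors, at −3.14. Between pnd7 and pnd14, 6 of 55 lay higher and 10 lower, beside 9.63% and 11.5%. Eng, a co-receptor that works with Acvrl1, stood at 2.48, Dusp5, a feedback phosphatase of ERK, at 1.22, and Nr2f2, a stromal target of uterine Hedgehog signalling, at 1.44. Marker cells held 14 of the 35 Eng counts and 39.1% of the Nr2f2 counts at pnd14. Grb10, an imprinted adaptor of IGF and insulin receptors, stood at −3.99 and Ltbp1, which anchors latent TGF-beta, at −2.71.

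Between pnd14 and pnd28, 4 of the 30 partners read lay at least 2-fold higher and 1 lower, beside 10.1% and 14.6%. Those higher were Spry2, which damps receptor tyrosine kinases, at 2.41, Sufu, which restrains GLI, at 2.10, Errfi1, an EGF receptor inhibitor, at 1.75, and Dusp5 at 1.09. Marker cells held 46.2% of the 13 Spry2 counts at pnd28, against 15.9% of all counts. Between pnd28 and pnd56, 1 of 11 partners lay higher and 1 lower, beside 13% and 13.6%. These were Nr2f2 at 1.23 and Sufu, with no count at pnd56 and a bound of −2.57. Between pnd0 and pnd56, 4 of 46 lay higher and 11 lower, beside 8.4% and 14.1%. The higher ones were Dusp5 at 1.94, Nr2f2 at 1.65, Skil, a SMAD co-repressor, at 1.36, and Spry2 at 1.34. Among the lower ones were Cdon, a Hedgehog co-receptor, at −3.19, Tgif2, a SMAD co-repressor, at −3.08, and Fstl1, a secreted BMP antagonist, at −3.02.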

How the data were processed

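Single CD326+ uterine cells were profiled by CEL-seq, per the labels' protocols. The deposited table holds counts as whole numbers, for each gene in each cell. The submitters' processing notes name TopHat, Cuffnorm and build mm9, without roles or versions; no source used here gives the strand setting or the use of molecular identifiers. Such counts may therefore not be independent molecules, and intervals and floors cover counting error at most.

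Counts were summed over the cells of each age. With 1 sample per age no test was made. Ratios needed at least 20 counts over both ages; an age with 0 counts was set to a floor of 3, summed over the age, for a bound, and where both had 3 or fewer no ratio was given. For shares at equal depth, cells were thinned to 1000 counts, which kept 171, 266, 162, 52 and 43 cells. The ratio calculation was tested on simulated Poisson counts. These held no variation between cells or runs, so they check the calculation alone. Python 3.11.15, numpy 2.4.6, scipy 1.17.1, pandas 2.3.3 and matplotlib 3.10.9 were used.

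The members, marker lists and partner lists were chosen with earlier results of these data known. Named members were those at least 2-fold apart in a comparison (up to 10 in each direction), those with at least 100 counts, and the 2 with the most counts in each role. Other members are named with their counts after these were seen. Partner genes were named after their values were seen. Rows that match by name only stayed outside the families, and 1 member is not reported here. Motif shares use the 250 bases before each start instead of the planned 300-base windows. GENCODE M21 served for names and neighbouring genes, since its build differs from the authors'. Scaling, depth, count minimum, marker cells, single cells and runs were varied.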

Additional observations from a re-analysis of the deposited data

How the results depend on the processing

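Depth limits these results at the later ages, where 1 count is worth 10.4 CPM at pnd28 and 12.2 CPM at pnd56. With cells thinned to 1000 counts, the members at least 2-fold apart numbered 0 of 18, 5 of 18, 4 of 11, 2 of 3 and 6 of 11 members read in the 5 comparisons, in the order of the report, beside 8.15%, 19.7%, 21.3%, 23.7% and 24.2% of all genes. Fewer counts per gene leave fewer members above the minimum: Smad7, at 3.51 for pnd28 over pnd14 and −3.19 for pnd56 over pnd28, no longer met the rule. A minimum of 10 counts gave 5 of 38 for pnd7 over pnd0, beside 12.7%, and one of 50 counts gave 5 of 18, 2 of 8 and 2 of 3 for pnd14 over pnd7 and the 2 comparisons after it, beside 18.1%, 26.4% and 26.3%. With no overlap of runs between the ages as a further condition, 1 of 30 was left for pnd7 over pnd0 and 7 of 32 for pnd14 over pnd7, beside 7.11% and 14% of all genes. Equal weight of cells gave 4 of 30 for pnd7 over pnd0, beside 14%. No interval was made for that setting, so reaching 2-fold was enough, for members and for all genes. For pnd56 over pnd28, 3 of 6 were left without marker cells and 3 of 5 without the largest cell of each gene, beside 26.3% and 28%. Leaving out 1 run at a time gave 1 to 5, 8 to 14 and 5 to 9 in the first 3 comparisons and 9 to 10 in the last, of 26 to 29, 27 to 30, 15 to 18 and 15 to 17 members read. The shares of all genes were 10.7% to 12.8%, 21.3% to 22.5%, 26% to 27.9% and 29.9% to 30.1%. Without run 1 the 5 included Egfr at 2.97, Igf2r at 2.51 and Smad4 at 1.15, all higher at pnd7. Of the alternative values of the 36 member ratios at least 2-fold apart, 75.4% were again at least 2-fold apart and 0 reversed. The cause of these differences was not tested. The share of 75.4% counts only alternatives that gave a ratio or a bound. It leaves out the changes of the count minimum and the condition on runs, and it takes equal weight of cells by the ratio alone. Igf1 without marker cells is also left out for pnd28 over pnd14, with 2 against 3 counts, and for pnd56 over pnd28, with 2 against 2. Smad3 for pnd56 over pnd28 was at least 2-fold apart under none of its 5 alternatives, with −1.14 under median-of-ratios scaling. No paired analysis was possible because the replicate numbers only name cells.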

Other observations

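The 16 rows that share only the start of a name with the families were kept apart. Of 6 read, 1 lay at least 2-fold higher and 1 lower at pnd56 than at pnd0, beside 8.4% and 14.1% of all genes. From pnd7 to pnd14, 1 of 6 lay higher and 0 lower, beside 9.63% and 11.5%. From pnd14 to pnd28, 0 of 5 lay higher and 1 lower, beside 10.1% and 14.6%. Smox, which encodes the polyamine enzyme spermine oxidase, stood at 106.4, 77.8, 240.1, 218.2 and 378.5 CPM over the 5 ages. Its log2 ratio was 1.63 [1.13, 2.14] for pnd14 over pnd7 and 1.83 [1.16, 2.48] for pnd56 over pnd0. It is named here after its values were seen.

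Counts of different members in the same cell were compared at equal depth as a description. Among pnd7 cells, Id3 was counted in 52.1% of those with a count of Id1 and in 37.8% of those without. Both were counted in 49 cells, where 40.3 would be expected if the genes were unrelated. The pair is an example from many that were compared. Its values were 37 against 33.7 at pnd0 and 15 against 12.2 at pnd14. Other pairs lay on either side at pnd7, such as Hes1 with Id1 at 19 against 12.4. Id1 with Igfbp2 stood at 6 against 10.95. Such counts share library and depth.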
